A study of Bos indicus with 5 samples.

Results

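The enzymes that make, convert and inactivate steroids, retinoids and foreign compounds were described in the ampulla, the wide upper region of the bovine oviduct. Their genes were chosen by symbol alone: hydroxysteroid dehydrogenases (HSD), cytochromes P450 (CYP), aldo-keto reductases of family 1 (AKR1), aldehyde dehydrogenases (ALDH), sulfotransferases (SULT), UDP-glucuronosyltransferases (UGT), steroid 5-alpha-reductases (SRD5A), the steroid sulfatase STS and the cholesterol transport protein STAR. The rule took 97 of the 24616 genes in the table, and no measured value entered it. A symbol was given for 19971 of these genes, so the rule could not take the others. HSD3B1 was not analysed here.

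Steroid hormones start from cholesterol, which STAR brings to the inner mitochondrial membrane and CYP11A1 cleaves to pregnenolone. Tissues that make no hormone of their own still adjust what arrives in the blood, because hydroxysteroid dehydrogenases and reductases switch steroids between active and weak forms, sulfotransferases and UDP-glucuronosyltransferases tag them for removal, and STS takes the sulfate off again. Many of the same families oxidise drugs, fatty acids and aldehydes, and the ALDH1A enzymes among them make retinoic acid, a ligand of nuclear receptors, from retinaldehyde. The oviduct epithelium holds ciliated and secretory cells and is a target of ovarian estradiol and progesterone.

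The libraries came from healthy multiparous Nelore (Bos indicus) cows given an intravaginal device with 1 g of progesterone and 2 mg of estradiol benzoate on day -10. In the large follicle and large corpus luteum group (LF/LCL, 2 libraries), a prostaglandin F2-alpha analogue, 0.5 mg of cloprostenol, was also given on day -10, and the device was removed 42 h before an ovulation-inducing dose of GnRH agonist on day 0. In the small follicle and small corpus luteum group (SF/SCL, 3 libraries), day -10 brought no prostaglandin and the device was removed 30 h before GnRH. Cows of both groups received prostaglandin at device removal and again 6 h later, and ampulla tissue on the side of the corpus luteum was taken on day 4. The library cows were the study's most contrasting animals for follicle size, luteal size and hormone levels, 1 cow per library, so the comparison is between extremes. A further LF/LCL ampulla library was dropped by the study because its quality was poor and it gave few reads. The added prostaglandin, the timing of device removal and the ovarian and hormone changes that follow cannot be told apart.

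Each library held 13418278 to 19592174 reads assigned to genes. The first principal component took 36.9% of the variance and separated the groups. The libraries lay at -42.4 and -40.6 in LF/LCL and at 12.1, 11.4 and 59.5 in SF/SCL, with SF/SCL replicate 3 at the far end. The tissue label was checked against marker genes. OVGP1, the oviduct-specific glycoprotein of secretory cells, had 117179 to 147247 normalized reads per library, that is, reads divided by the size factor of the library. The markers of ovarian follicle and corpus luteum summed to 90.0 to 158 normalized reads in LF/LCL and 139 to 197 in SF/SCL, and the gonadotropin receptors FSHR and LHCGR had no read. Of 5 tested markers of this list, 2 were higher in SF/SCL at an unadjusted limma p under 0.05 (5.86% of all genes tested). These were FST, at a log2 difference of -1.14 ± 0.36, and AMH, at -1.33 ± 0.54. Another 2 were higher in LF/LCL, INHBA at 0.99 ± 0.56 and INHA at 0.455 ± 0.79, and the list median was -0.19.

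Several cell type lists leaned with the groups, although no gene of the table passed limma's adjusted threshold. DESeq2, at an adjusted p under 0.05, called 4 smooth muscle, 2 secretory and 1 immune cell marker higher in LF/LCL (1.38% of all genes) and 3 ciliated and 1 endothelial marker higher in SF/SCL (1.5% of all genes). All 9 tested smooth muscle markers were higher in LF/LCL, 8 of them at an unadjusted p under 0.05 (5.64% of all genes tested), with a median log2 difference of 1.47, and their sum was 56335 to 111521 normalized reads in LF/LCL against 14344 to 37964 in SF/SCL. All 9 tested ciliated cell markers were higher in SF/SCL, 8 of them at an unadjusted p under 0.05 (5.86% of all genes tested), with a median of -0.55, and their sum was 53641 to 65757 in LF/LCL against 77776 to 79630 in SF/SCL. Of 7 secretory markers, 4 were higher in LF/LCL at that p. The others leaned to SF/SCL without reaching it, OVGP1 at -0.07 ± 0.15, MSLN at -1.13 ± 0.56 and MUC1 at -0.52 ± 0.35. The sum of the list, most of it OVGP1, overlapped at 139554 to 151764 in LF/LCL against 138220 to 161653 in SF/SCL. Stromal fibroblast markers summed to 32020 to 79058 in LF/LCL and 20769 to 44628 in SF/SCL, and immune cell markers to 2320 to 3152 and 1472 to 2564, with 4 of 9 immune markers higher in LF/LCL at an unadjusted p under 0.05. Endothelial markers summed to 3386 to 5372 and 4384 to 6596, mesothelial markers to 8606 to 8792 and 7507 to 10660, and hemoglobin and other blood markers to 65.8 to 507 and 18.2 to 235. The part of these cell types in the differences below was not tested. In bulk tissue, fewer cells of a type and less RNA per cell cannot be told apart.

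Of the 97 genes, 64 had a mean above 5 normalized reads and were tested. Among the tested genes, 21 had a mean of 1000 or more, 34 a mean from 15 to 1000, and 9 a mean below 15. A further 25 genes had reads but were not tested, 18 of them with at most 3 reads in every library, and 8 genes had no read. The 97 genes together took 0.418% to 0.475% of the reads of a library, with a sum of 73637 ± 1001 (SD, n = 2) normalized reads in LF/LCL against 66830 ± 2795 (SD, n = 3) in SF/SCL.

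None of the 64 tested genes passed the test at a Benjamini-Hochberg adjusted p under 0.05 in limma, and none of all 15815 genes tested did (0%). The smallest adjusted p among the enzymes was 0.178, for ALDH1A1 and ALDH1A2. At an unadjusted p under 0.05, limma gave 16 of the 64 enzymes (25%) and 11.5% of all genes, and edgeR's quasi-likelihood test gave 15 enzymes (23.4%) and 11.6% of all genes, with none past its adjusted threshold. Its 9 enzymes higher in LF/LCL stood beside 5.89% of all genes, and its 6 higher in SF/SCL beside 5.67%. By direction in limma, 8 enzymes were higher in LF/LCL, where the background was 5.64% of all genes, and 8 were higher in SF/SCL, where it was 5.86%. DESeq2, run on the whole reads recovered from the deposited values, called 5 enzymes at an adjusted p under 0.05 against a background of 2.89%, namely ALDH1A1 and ALDH1L2, which it found higher in LF/LCL (background 1.38%), and ALDH1A2, ALDH1A3 and CYP2C19, which it found higher in SF/SCL (background 1.5%). The exact test of edgeR called 4 of these, all but ALDH1L2, against 2.12% of all genes, or 1.16% for LF/LCL, where it called 1 enzyme, and 0.961% for SF/SCL, where it called 3.

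The enzymes differed by larger folds than the genes at large, in both directions. The median size of their log2 difference was 0.39 against 0.21 over all genes tested, and 11 of 64 (17.2%) differed by more than 2-fold against 7.79% of all genes. Their standard errors were also larger, with a median of 0.365 against 0.205, and their median level was lower, at 295 against 391 normalized reads. The median signed difference was 0.02, with 36 of 64 positive, and 0.00 over all genes. The groups did not overlap for 22 enzymes (34.4%), close to the 30.1% of all genes, with 10 higher in LF/LCL (background 15%) and 12 higher in SF/SCL (background 15.1%).

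**Figure D1:**
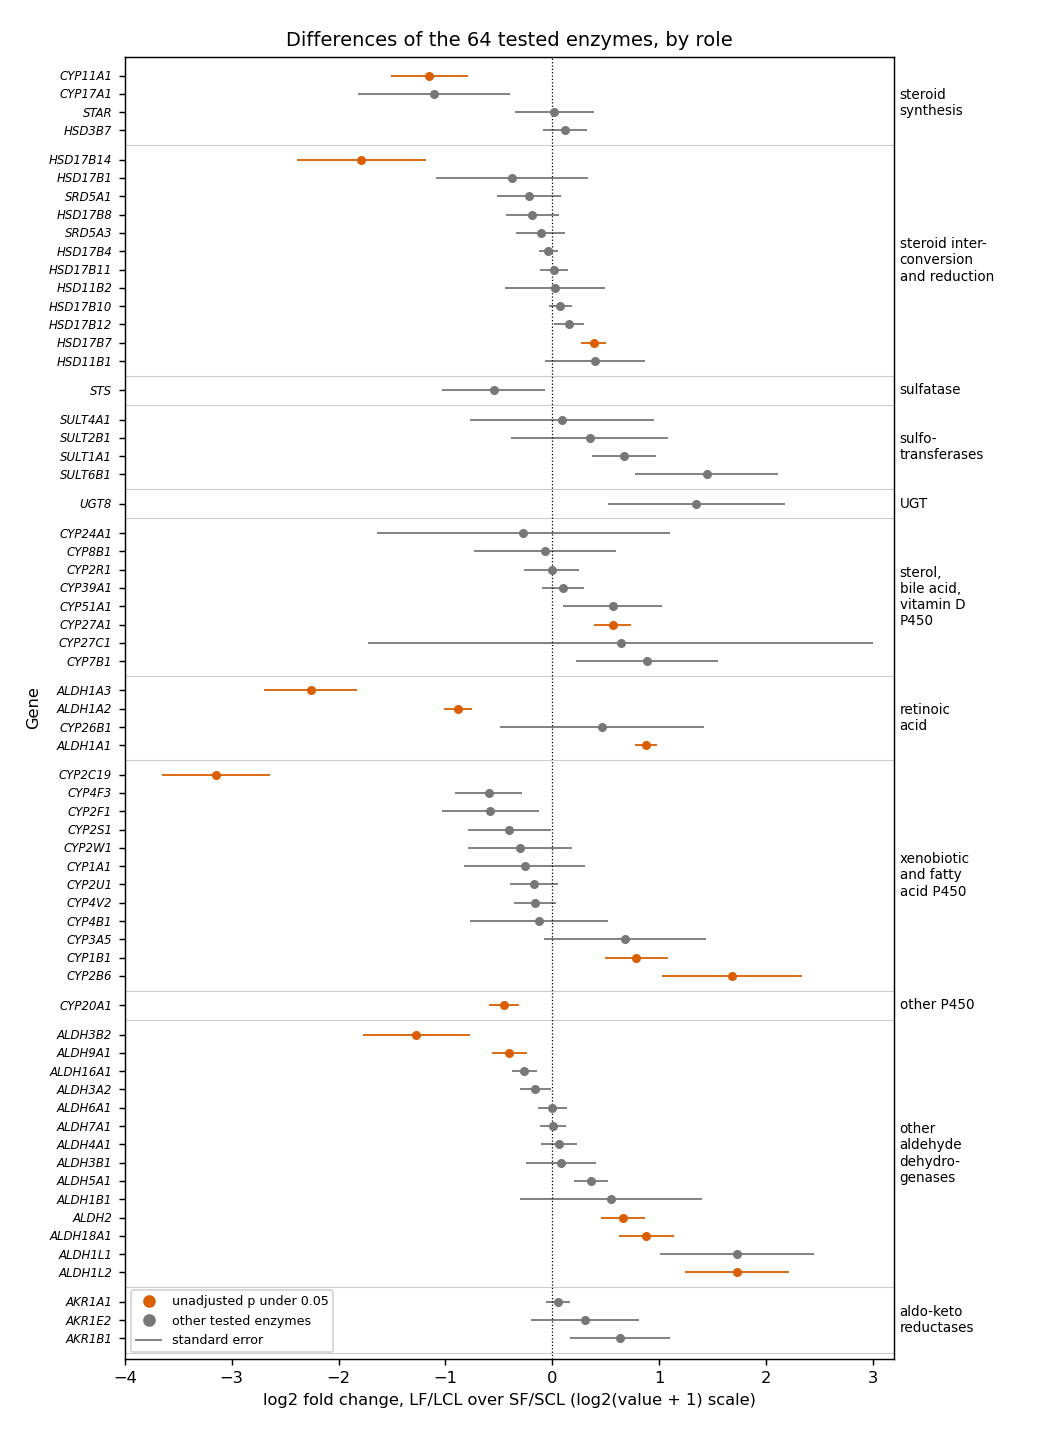
Log2 difference of each of the 64 tested genes (x axis, LF/LCL minus SF/SCL on the log2(value + 1) scale) by role (rows grouped from top to bottom). Points are limma estimates, bars are standard errors, and orange marks the 16 genes with an unadjusted p under 0.05. CYP2C19 lies farthest to the SF/SCL side at -3.15, and ALDH1L2 and ALDH1L1 farthest to the LF/LCL side at 1.73 and 1.72.

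Among the enzymes, ALDH1A1 and ALDH1A2 of retinoic acid synthesis held the smallest limma adjusted p values, and they differed in opposite directions. ALDH1A1, a retinaldehyde dehydrogenase that also acts on other aldehydes, had 6795 and 6408 normalized reads in LF/LCL against 3453, 3830 and 3515 in SF/SCL. Both LF/LCL libraries were well above every SF/SCL library. The means were 6601 ± 273.9 (SD, n = 2) and 3599 ± 202.2 (SD, n = 3), a ratio of 1.83, with a log2 difference of 0.88 ± 0.10 (SE), a limma adjusted p of 0.178 and a DESeq2 adjusted p of 6.46e-10.

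ALDH1A2, the main retinaldehyde dehydrogenase of many embryonic and stromal tissues, ran the other way, with 2226 and 2554 normalized reads in LF/LCL against 4816, 4484 and 3917 in SF/SCL. Every SF/SCL library was above both LF/LCL libraries. The means were 2390 ± 232 (SD, n = 2) and 4406 ± 454.5 (SD, n = 3), so SF/SCL was 1.84 times LF/LCL, with a log2 difference of -0.88 ± 0.13, a limma adjusted p of 0.178 and a DESeq2 adjusted p of 1.33e-05. The third enzyme of the trio, ALDH1A3, was far scarcer, at 55.1 and 23.2 in LF/LCL against 133, 208 and 195 in SF/SCL. Its groups did not overlap either, and SF/SCL was 4.57 times LF/LCL, with a log2 difference of -2.26 ± 0.43, a limma adjusted p of 0.222 and a DESeq2 adjusted p of 0.000415. The size of that difference leaned on the LF/LCL libraries, since it was -2.87 without LF/LCL replicate 1 and -1.65 without LF/LCL replicate 2.

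The opposite differences nearly cancelled in the summed ALDH1A reads, at 9076 and 8985 normalized reads in LF/LCL against 8402, 8522 and 7627 in SF/SCL. Their division between the genes, worked out after these values had been seen, differed much more. ALDH1A1 made up 74.9% and 71.3% of the ALDH1A reads in LF/LCL against 41.1%, 44.9% and 46.1% in SF/SCL. ALDH1A2 made up 24.5% and 28.4% in LF/LCL against 57.3%, 52.6% and 51.4% in SF/SCL. The ratio of ALDH1A1 to ALDH1A2 reads was thus 3.05 and 2.51 in LF/LCL against 0.717, 0.854 and 0.897 in SF/SCL, and this ratio does not depend on how libraries were scaled. Read numbers also depend on transcript length, so the ratio compares libraries and not the molar amounts of the enzymes.

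Retinoic acid is broken down by the CYP26 enzymes, which were low. CYP26B1 had 61.0 and 24.2 normalized reads in LF/LCL against 41.6, 63.7 and 7.51 in SF/SCL, overlapping, with a log2 difference of 0.47 ± 0.95. CYP26A1 had 2 reads over all libraries, CYP26C1 none, and ALDH8A1, which acts on 9-cis-retinaldehyde, 7.

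Among 13 genes listed as retinoid partners (carriers, receptors and retinol enzymes), 10 were tested and none passed limma's adjusted threshold. At an unadjusted limma p under 0.05, 1 leaned to LF/LCL and 2 to SF/SCL, where the shares over all genes were 5.64% and 5.86%. The median log2 difference of the 10 was 0.13. CRABP2, which carries retinoic acid to its nuclear receptor, had 432 and 448 normalized reads in LF/LCL against 43.7, 57.5 and 236 in SF/SCL. SF/SCL replicate 3 lay between the other libraries, and the difference was 2.37 ± 0.72, with a limma adjusted p of 0.345.

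Both genes that leaned to SF/SCL are named because their count was small. STRA6, the membrane receptor that takes up retinol, had 785 and 788 normalized reads in LF/LCL against 1499, 1116 and 2768 in SF/SCL, a difference of -1.08 ± 0.37. DHRS3, which reduces retinaldehyde back to retinol, had 1140 and 812 in LF/LCL against 1546, 2113 and 1317 in SF/SCL, a difference of -0.76 ± 0.24. Neither gene's groups overlapped, and their limma adjusted p values were 0.376 and 0.355.

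**Figure D2:**
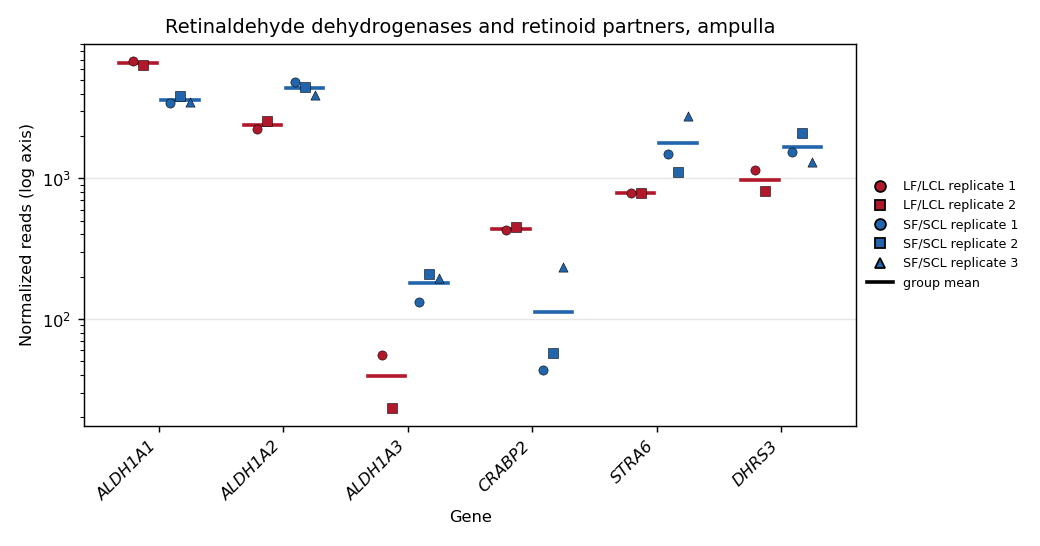
Normalized reads of the ALDH1A genes and of 3 retinoid partners in each library, on a log axis, with points for libraries and short lines for group means. ALDH1A1 (6795 and 6408, against 3453 to 3830) and CRABP2 lie higher in both LF/LCL libraries, and ALDH1A2, ALDH1A3, STRA6 and DHRS3 lie higher in every SF/SCL library.

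Of the machinery of steroid synthesis from cholesterol, STAR and CYP11A1 were present at low levels, while CYP17A1 and CYP19A1 were near the limit of detection. CYP11A1, which carries out the first and limiting cleavage, had 61.0 and 84.2 normalized reads in LF/LCL against 120, 146 and 236 in SF/SCL. All SF/SCL libraries were above both LF/LCL libraries, by 2.30-fold between means, and the log2 difference was -1.15 ± 0.36 with an unadjusted p of 0.0177 and an adjusted p of 0.345 in limma. The ovarian markers FST and AMH leaned the same way, at -1.14 and -1.33, while INHBA and INHA leaned to LF/LCL, at 0.99 and 0.455. The median of the 5 tested ovarian markers was -0.19, and their part in the CYP11A1 difference was not tested. STAR did not separate the groups, at 55.1 and 77.4 in LF/LCL against 47.8, 65.3 and 85.9 in SF/SCL, with a difference of 0.02 ± 0.37.

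CYP17A1, which makes androgen precursors, was near the limit of detection, at 2.35 and 2.90 normalized reads in LF/LCL against 4.16, 8.55 and 8.59 in SF/SCL. A count of 3 reads corresponds to 2.33 to 3.52 normalized reads in these libraries, so both LF/LCL values lie at 2 or 3 reads. Its difference was -1.11 ± 0.71. CYP19A1, the aromatase that makes estrogens, had 1 read in all 5 libraries together. HSD3B7, which acts on bile acid precursors rather than on hormones, had 228 and 175 in LF/LCL against 181, 171 and 202 in SF/SCL, overlapping, with a difference of 0.12 ± 0.21.

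**Figure D3:**
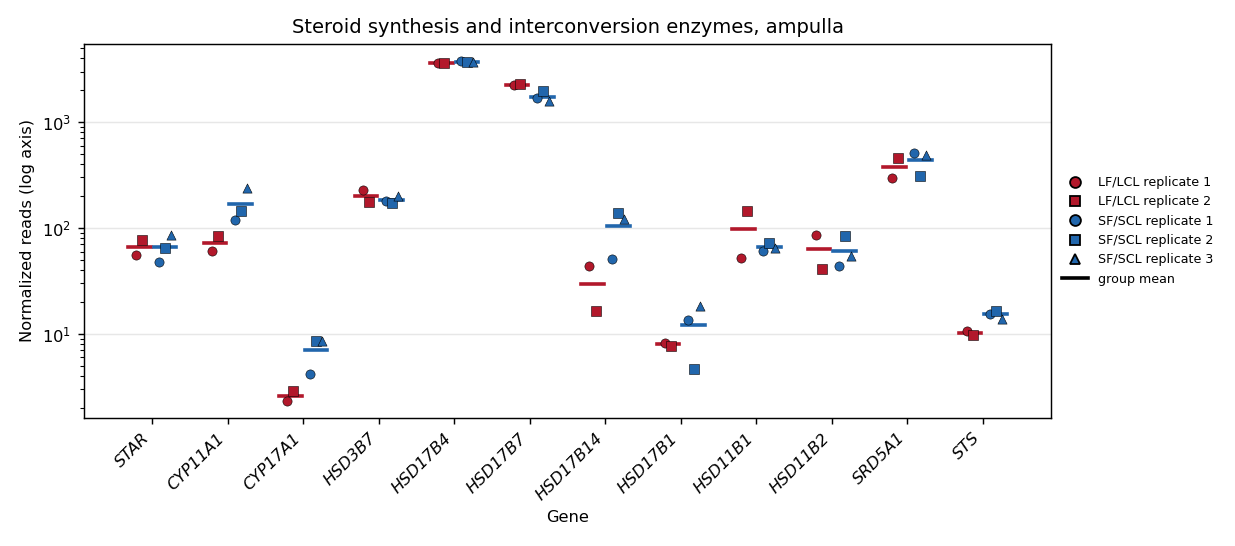
Normalized reads, on a log axis, of genes of steroid synthesis, interconversion and sulfate removal in each library, with points for libraries and short lines for group means. CYP11A1 (61.0 to 84.2 in LF/LCL, 120 to 236 in SF/SCL) and HSD17B14 separate the groups towards SF/SCL and HSD17B7 towards LF/LCL. CYP17A1 and STS, both with few reads, and HSD17B4, with a log2 difference of -0.04, are also higher in every SF/SCL library. STAR, HSD3B7, HSD17B1, HSD11B1, HSD11B2 and SRD5A1 overlap.

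The enzymes of steroid interconversion and reduction were mostly even between groups. Their 19 genes summed to 11804 ± 20.3 (SD, n = 2) normalized reads in LF/LCL against 11416 ± 429.5 (SD, n = 3) in SF/SCL, and the median log2 difference of the 12 tested was -0.01, with 1 gene at an unadjusted p under 0.05 in each direction (5.64% and 5.86% of all genes). HSD17B4, a peroxisomal enzyme that oxidises estradiol and also takes part in fatty acid beta-oxidation, had the most reads, at 3618 and 3611 in LF/LCL against 3772, 3711 and 3661 in SF/SCL. Every SF/SCL value was higher, but the difference was only -0.04 ± 0.09. HSD17B10, a mitochondrial enzyme of the same family, had 1567 and 1538 against 1520, 1566 and 1346, with a difference of 0.07 ± 0.11.

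HSD17B7, which reduces estrone to estradiol and also works in cholesterol synthesis, had 2220 and 2279 normalized reads in LF/LCL against 1672, 1944 and 1572 in SF/SCL. The values split cleanly by group, the ratio of the means was 1.30, and the unadjusted and adjusted p in limma were 0.0186 and 0.349. HSD17B14, which oxidises estradiol in vitro, had 43.4 and 16.5 in LF/LCL against 50.9, 138 and 121 in SF/SCL. SF/SCL was 3.46 times LF/LCL on means, with the lowest SF/SCL library close to the highest LF/LCL one, and the log2 difference was -1.79 ± 0.61 with an unadjusted p of 0.0252 and an adjusted p of 0.369 in limma. It was -2.46 without LF/LCL replicate 1 and -1.11 without LF/LCL replicate 2.

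HSD17B1 and HSD17B2 were scarce. HSD17B1, the ovarian and placental enzyme that makes estradiol, had 8.21 and 7.74 normalized reads in LF/LCL against 13.5, 4.66 and 18.2 in SF/SCL, with a difference of -0.38 ± 0.72. HSD17B2, which inactivates estradiol and testosterone, had 1 read in all, and HSD17B6 and HSD17B13 had 7 and 12. HSD17B3, the testicular enzyme, had none. HSD17B8, HSD17B11 and HSD17B12 were abundant, with means of 1024, 1190 and 1310, and SRD5A3 had a mean of 283. The differences of these genes lay between -0.19 and 0.16.

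The glucocorticoid enzymes overlapped between groups. HSD11B1, which regenerates cortisol, had 51.6 and 145 normalized reads in LF/LCL against 60.3, 71.5 and 65.5 in SF/SCL, so LF/LCL replicate 2 stood above all other libraries. The difference was 0.40 ± 0.47, and -0.34 without that library. HSD11B2, which inactivates cortisol, had 86.8 and 40.7 against 43.7, 83.9 and 54.7, a difference of 0.02 ± 0.47 that was -0.01 when libraries were scaled by total reads. SRD5A1, which reduces testosterone and progesterone, had 294 and 462 against 515, 312 and 493, with a difference of -0.22 ± 0.30, and its relative SRD5A2 had no read. The steroid-reducing aldo-keto reductases AKR1C4 and AKR1D1 had 1 and 2 reads.

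STS, SULT1E1 and SULT2A1 had few reads. STS, which frees steroids from their sulfates, had 10.6 and 9.68 normalized reads in LF/LCL against 15.6, 16.3 and 14.0 in SF/SCL. No LF/LCL value fell within the SF/SCL range, but the difference of -0.55 ± 0.48 was about the size of its error and had a limma adjusted p of 0.718. SULT1E1, the estrogen sulfotransferase, had 3 reads in all and SULT2A1, the hydroxysteroid sulfotransferase, 1.

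The sulfotransferase reads came almost wholly from SULT1A1, which sulfates simple phenols including estrogens and catechols. It had 1369 and 2678 normalized reads in LF/LCL against 1435, 1052 and 1145 in SF/SCL. LF/LCL replicate 2 was above the rest and the other LF/LCL library lay within the SF/SCL range, with a difference of 0.67 ± 0.30 that was 0.19 without LF/LCL replicate 2. SULT6B1 had 18.8 and 22.3 against 11.4, 3.11 and 8.59, with no overlap, a difference of 1.44 ± 0.67 and a limma adjusted p of 0.477. SULT2B1, a cholesterol sulfotransferase, and SULT4A1, a brain-type member, had mean values of 18.8 and 16.1, overlapped, and differed by 0.35 ± 0.74 and 0.09 ± 0.86, the latter at -0.06 in DESeq2 and both edgeR tests. Of the others, SULT1B1 had 22 reads in all, SULT1C2 and SULT1C3 1 each, and SULT1C4 none.

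The rule took 4 UGT genes, and those of glucuronidation among them were at or below the limit of detection. Enzymes of glucuronidation listed without a symbol could not be taken, so the whole class was not covered. UGT8, which makes galactosylceramide and not glucuronides, was the single tested UGT gene, with 72.7 and 11.6 normalized reads in LF/LCL against 12.5, 14.0 and 7.51 in SF/SCL. LF/LCL replicate 1 alone was high, and the difference of 1.35 ± 0.83 was 0.08 without it. UGT1A6 had 15 reads in all, and UGT2A3 and UGT3A1 had none.

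The cytochromes P450 of sterol, bile acid and vitamin D metabolism summed to 9844 ± 38.5 (SD, n = 2) normalized reads in LF/LCL against 6947 ± 1221 (SD, n = 3) in SF/SCL. CYP27A1, the mitochondrial sterol 27-hydroxylase that makes 27-hydroxycholesterol, supplied most of them, with 7258 and 5956 in LF/LCL against 4694, 5105 and 3667 in SF/SCL. Both LF/LCL libraries were above all SF/SCL libraries. The ratio of the means was 1.47, and the log2 difference was 0.56 ± 0.17 with an unadjusted p of 0.0172 and an adjusted p of 0.344 in limma.

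CYP51A1, the lanosterol demethylase of cholesterol synthesis, had 873 and 2488 normalized reads in LF/LCL against 1227, 1103 and 733 in SF/SCL. Only LF/LCL replicate 2 stood out, and the difference of 0.56 ± 0.47 was -0.19 without it. The same library was the highest for SULT1A1, HSD11B1 and CYP2B6. CYP39A1, an oxysterol 7-alpha-hydroxylase, had a mean of 1186 and differed by 0.10 ± 0.20. CYP7B1, which hydroxylates oxysterols and some steroids, had 83.3 and 70.7 against 20.8, 99.5 and 33.3, with a difference of 0.88 ± 0.66 that became 0.41 when SF/SCL replicate 1 was left out and 1.51 when replicate 2 was.

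The remaining P450 genes of this role, mostly of vitamin D and bile acid metabolism, were low and uneven. CYP2R1, a 25-hydroxylase, had a mean of 189 and a difference of -0.01 ± 0.26. CYP24A1, which inactivates vitamin D, had 1.17 and 34.8 normalized reads in LF/LCL against 10.4, 24.1 and 3.22 in SF/SCL. CYP27C1, which desaturates retinol, was listed at 0 in LF/LCL replicate 1 and in SF/SCL replicates 1 and 3, and had 34.8 and 56.0 in LF/LCL replicate 2 and SF/SCL replicate 2. Its spread within each group exceeded any difference between them. CYP8B1, a bile acid 12-alpha-hydroxylase, had a mean of 10.2 and a difference of -0.07 ± 0.66. CYP27B1 and CYP46A1 had 10 and 16 reads in all, and CYP7A1, the limiting enzyme of bile acid synthesis in liver, 2.

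Among the cytochromes P450 of xenobiotic and fatty acid metabolism, the gene annotated CYP2C19, of a drug-metabolising and epoxygenase subfamily, had the largest fold between groups. It had 23.5 and 15.5 normalized reads in LF/LCL against 133, 125 and 332 in SF/SCL. Every SF/SCL library was at least several times above both LF/LCL libraries. The means were 19.5 ± 5.63 (SD, n = 2) and 197 ± 117 (SD, n = 3), a ratio of 10.1, with a log2 difference of -3.15 ± 0.51, a limma adjusted p of 0.182 and a DESeq2 adjusted p of 4.42e-06. SF/SCL replicate 3 was the highest library, and without it the log2 difference was -2.69. The genes CYP2C87 and CYP2C18 of the same subfamily had 4 reads and none, and because only uniquely mapped reads were counted, how reads were divided between near-identical CYP2C genes is uncertain.

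CYP1B1, which hydroxylates estradiol and polycyclic aromatics, had 766 and 669 normalized reads in LF/LCL against 513, 277 and 504 in SF/SCL. The libraries separated by group, the ratio of the means was 1.66, and the log2 difference was 0.78 ± 0.29 with an unadjusted p of 0.037 and an adjusted p of 0.409 in limma. CYP2B6, another drug-metabolising enzyme with close relatives, had 462 and 1073 against 158, 500 and 133. The groups overlapped through SF/SCL replicate 2, and the difference was 1.68 ± 0.66 with an unadjusted p of 0.0451 and an adjusted p of 0.422 in limma. CYP1A1, the usual reporter of dioxin-type exposure, was low at 12.9 and 31.0 against 16.6, 25.6 and 33.3, and CYP1A2 had 2 reads in all.

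CYP4B1, which hydroxylates medium-chain fatty acids and some toxins, had the most reads of these genes, with 4691 and 3561 normalized reads in LF/LCL against 3416, 2335 and 11075 in SF/SCL. SF/SCL replicate 3, the library at the SF/SCL end of the first principal component, had more than any other library. The difference of -0.12 ± 0.65 was 0.53 without that library, so CYP4B1 had no settled direction. This gene also carried the sum of the 21 xenobiotic and fatty acid P450 genes, which was 14442 in SF/SCL replicate 3 and 5786 to 7827 elsewhere.

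The other fatty acid P450 genes overlapped. CYP4F3, which hydroxylates leukotriene B4, had 345 and 595 normalized reads in LF/LCL against 517, 883 and 707 in SF/SCL, with a difference of -0.60 ± 0.31 that was -0.20 without LF/LCL replicate 1 and -0.99 without LF/LCL replicate 2. CYP4V2, an omega-hydroxylase, and CYP2U1, a fatty acid hydroxylase, differed by -0.16 ± 0.20 and -0.17 ± 0.22. CYP2S1, CYP2W1 and CYP2F1 also overlapped, with differences between -0.58 and -0.30. CYP3A5 had an entry (ENSBTAG00000005450) with a mean of 8.52 and a difference of 0.68 ± 0.76, and another (ENSBTAG00000012201) with 21 reads in all. CYP4A22, CYP4F22, CYP4F2 and CYP2E1 had 10, 7, 4 and 2 reads in all, and CYP4X1 had none. CYP20A1, a P450 without an established substrate, had 698 and 613 in LF/LCL against 795, 893 and 1005 in SF/SCL, without overlap, and differed by -0.45 ± 0.14, with an unadjusted p of 0.0185 and an adjusted p of 0.349 in limma.

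**Figure D4:**
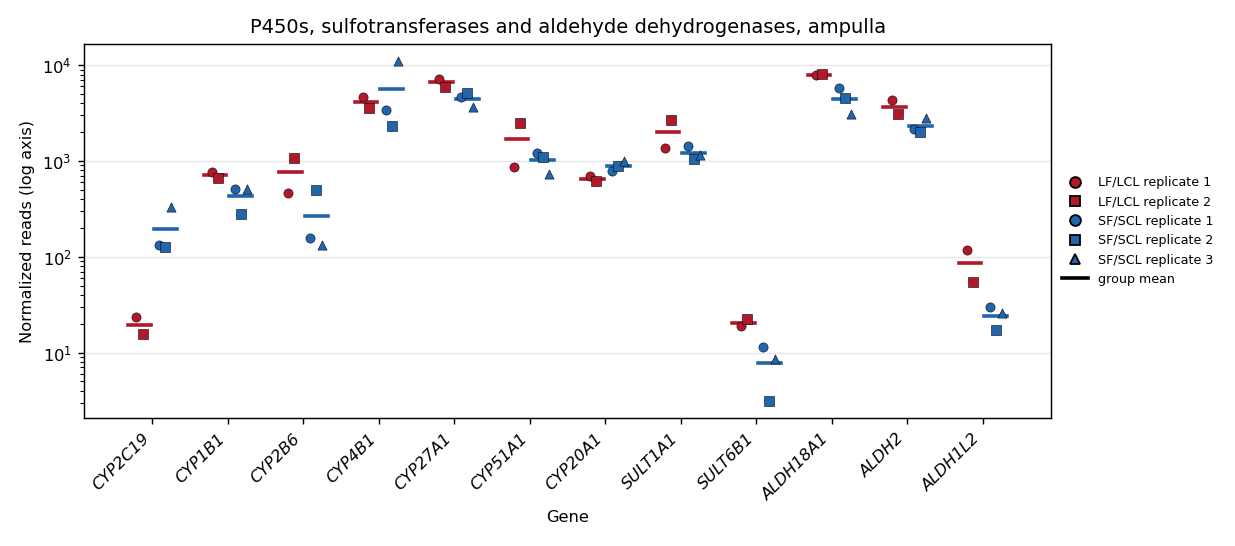
Normalized reads, on a log axis, of P450 genes, SULT1A1, SULT6B1 and 3 aldehyde dehydrogenases outside retinoid synthesis in each library, with points for libraries and short lines for group means. CYP2C19 shows the widest gap (15.5 and 23.5 in LF/LCL, 125 to 332 in SF/SCL), and the single high CYP4B1 point, at 11075, is SF/SCL replicate 3.

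The aldehyde dehydrogenases outside retinoid synthesis took the most reads of any role, 30864 ± 605.6 (SD, n = 2) normalized reads in LF/LCL against 27433 ± 2262 (SD, n = 3) in SF/SCL. Of 14 tested, 3 leaned to LF/LCL and 2 to SF/SCL at an unadjusted p under 0.05, where the shares over all genes were 5.64% and 5.86%. ALDH1L2, the mitochondrial enzyme that oxidises 10-formyltetrahydrofolate, had 118 and 55.2 in LF/LCL against 30.2, 17.1 and 25.8 in SF/SCL. The values split cleanly by group, LF/LCL was 3.57 times SF/SCL on means, and the log2 difference was 1.73 ± 0.49, with a limma adjusted p of 0.313 and a DESeq2 adjusted p of 0.041. That DESeq2 call was lost whichever library was left out, and the limma difference was 1.19 without LF/LCL replicate 1. Its cytosolic counterpart ALDH1L1 had 11.7 and 13.6 against 2.08, 6.22 and 2.15, also without overlap, with a difference of 1.72 ± 0.72 and an unadjusted limma p of 0.053.

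ALDH18A1, which starts proline synthesis from glutamate, had 7821 and 8072 normalized reads in LF/LCL against 5779, 4495 and 3097 in SF/SCL. No LF/LCL value fell within the SF/SCL range, the ratio of the means was 1.78, and the log2 difference was 0.88 ± 0.26, with an adjusted p of 0.329 in limma and 0.0711 in DESeq2. ALDH2, which clears acetaldehyde and lipid aldehydes in mitochondria, had 4286 and 3085 against 2156, 1990 and 2821. Its groups came close but did not overlap, and the difference was 0.66 ± 0.21 with a limma adjusted p of 0.344. ALDH5A1, of the GABA pathway, had 2319 and 1935 against 1870, 1705 and 1405, a difference of 0.36 ± 0.16 with an unadjusted p of 0.0597 in limma.

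Others leaned to SF/SCL. ALDH9A1, which serves carnitine synthesis, had 1718 and 2322 normalized reads in LF/LCL against 2800, 2784 and 2359 in SF/SCL, with almost no gap between groups and a difference of -0.40 ± 0.16, at an unadjusted p of 0.0461 in limma. ALDH3B2 had 16.4 and 31.9 against 48.9, 89.4 and 41.9, a difference of -1.27 ± 0.50 at an unadjusted limma p of 0.0444. ALDH16A1 had 528 and 481 against 633, 599 and 583, without overlap, and differed by -0.26 ± 0.12.

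The gene with the most reads of all 97 was ALDH3A2, the fatty aldehyde dehydrogenase, at 9551 and 11789 normalized reads in LF/LCL against 13001, 10616 and 12096 in SF/SCL. It overlapped, with a difference of -0.16 ± 0.15. ALDH7A1 and ALDH6A1, of lysine and valine breakdown, had means of 1902 and 1050 and differed by 0.01 ± 0.12 and 0.00 ± 0.14. ALDH4A1, of proline breakdown, ALDH3B1 and ALDH1B1 overlapped, with differences from 0.06 to 0.55, and ALDH3A1, a corneal enzyme, had 3 reads in all.

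Of the aldo-keto reductases that are not named for steroid reduction, AKR1A1, a general aldehyde reductase, had 1189 and 1245 normalized reads in LF/LCL against 1096, 1288 and 1145 in SF/SCL. It overlapped, with a difference of 0.05 ± 0.11. AKR1B1, aldose reductase, which is also a prostaglandin F synthase in cattle, had 52.8 and 34.8 against 32.2, 17.9 and 35.4, with a difference of 0.63 ± 0.47. AKR1E2 had a mean of 29.5 and differed by 0.31 ± 0.51.

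Genes that serve these enzymes were read from separate lists, and none of the listed genes passed limma's adjusted threshold. Of 8 electron donors of P450 and reductase steps, none had an unadjusted limma p under 0.05 (11.5% of all genes tested), and their median difference was 0.12. Of 9 genes of cofactor supply and sulfatase maturation, 2 were higher in LF/LCL at that p (5.64% of all genes tested). These were SLC35B3, which carries the sulfate donor PAPS into the Golgi, at 0.57 ± 0.15, and SUMF1, which activates sulfatases, at 0.32 ± 0.13. Of 15 tested entries for steroid and sterol handling, 1 was higher in SF/SCL at that p (5.86% of all genes tested). This was HSDL1, at -0.60 ± 0.24, and the median of the list was 0.07.

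Of 11 tested xenobiotic sensors, 1 had an unadjusted limma p under 0.05 (11.5% of all genes tested). This was ARNT2, a dimerisation partner of the aryl hydrocarbon receptor family, with 421 and 856 normalized reads in LF/LCL against 1227, 1556 and 1156 in SF/SCL. Its groups did not overlap, and the difference was -1.12 ± 0.31 with a limma adjusted p of 0.319. RXRG, a retinoid X receptor, differed by 1.58 ± 0.74 at an unadjusted limma p of 0.0769, and AHRR, the repressor of the aryl hydrocarbon receptor, had no read.

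Of 20 tested enzymes of phase I and II metabolism outside the named families, 2 leaned to LF/LCL and 4 to SF/SCL at an unadjusted p under 0.05, against 5.64% and 5.86% of all genes. DESeq2 called 1 and 3 of them, against 1.38% and 1.5% of all genes. EPHX1, the microsomal epoxide hydrolase, had 3055 and 3484 normalized reads in LF/LCL against 4661, 5880 and 5443 in SF/SCL. The libraries separated by group, and the difference was -0.70 ± 0.14, with an adjusted p of 0.222 in limma and 0.0027 in DESeq2. FMO2, a flavin monooxygenase, had 138 and 410 against 860, 1087 and 921. It too did not overlap, and the difference was -1.99 ± 0.44, with an adjusted p of 0.266 in limma and 0.00321 in DESeq2. The other DESeq2 calls, named for their small number, were EPHX2, the soluble epoxide hydrolase, and FMO5. EPHX2 was higher in LF/LCL by 1.11 ± 0.32, with an adjusted p of 0.324 in limma and 0.0281 in DESeq2. FMO5 was higher in SF/SCL, at -0.43 ± 0.11, with an adjusted p of 0.294 in limma and 0.0496 in DESeq2, just under the threshold.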

How the data were processed

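The authors prepared TruSeq libraries from whole ampulla RNA, aligned reads with TopHat2 2.0.8 and Bowtie2 2.1.0 to the Bos taurus assembly UMD 3.1, kept uniquely mapped reads, counted them per gene with HTSeq 0.5.4p2 and divided counts by the size factors of DESeq 1.12.1, per the labels and methods. The deposited signal is therefore normalized reads, 1 column per library. Whether strand was used in counting is not given in the sources used here, so overlapping genes and near-identical copies are uncertain. The values returned whole reads in 100% of cases (tolerance 0.05 reads).

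The main test was limma 3.58.1 (R 4.3.3; trend and robust) on log2(value + 1) for genes with a mean above 5, LF/LCL minus SF/SCL, without covariates and with Benjamini-Hochberg adjustment over all 15815 genes tested. Fold changes on this scale understate changes of low genes. The exact and quasi-likelihood tests of edgeR 4.0.16 and DESeq2 1.42.0 were run on recovered reads, and scripts were tested on simulated data. Libraries of a group came from different cows, and no batch is given. Named genes were, per role, the 3 with the most reads and the 2 with the smallest p, plus core steroid steps and DESeq2 calls. All other members are accounted for more briefly. From the lists, a few genes are named, mostly those with the smallest p or a DESeq2 call, and some lists name none. The genes, lists and roles were chosen with earlier results of these data known. Symbols are those of the table, and no sequence was used. One gene of the retinoid partner list is not reported here.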

Additional observations from a re-analysis of the deposited data

How the results depend on the processing

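With 2 libraries against 3, low genes were imprecise, and intervals of counting error do not cover the difference between cows. No paired analysis was possible because the labels number animals, not pairs. Without 1 LF/LCL library, the other is assumed to vary like SF/SCL. The count of enzymes past an adjusted p of 0.05 was 0 in limma and in edgeR's quasi-likelihood test, 5 in DESeq2 (2 higher in LF/LCL) and 4 in edgeR's exact test (1 higher in LF/LCL), and in limma it was also 0 at a threshold of 0.1 and whichever library was left out. The 16 enzymes at an unadjusted limma p under 0.05 became 13 to 16 without 1 SF/SCL library. Over all genes tested, the 1819 at that p became 1496 to 1656. DESeq2 called 5 or 6 enzymes without 1 SF/SCL library, each time with ALDH1A1, ALDH1A2, ALDH1A3 and CYP2C19. Over all genes, its 457 calls became 294 to 404. The 22 enzymes without overlap became 24 to 41 without 1 library, since fewer libraries overlap less. They were 36 without LF/LCL replicate 1 and 41 without LF/LCL replicate 2. The share of all genes without overlap was not worked out for these settings. The median difference of 0.02 was 0.10 without a filter on low values, when more genes entered, and -0.036 to 0.119 without 1 library. Of 566 values of 38 named enzymes under the alternatives, 532 kept direction and side of the threshold, 25 in 12 enzymes changed sign, and 9 in 5 enzymes passed an adjusted p they had missed. Under scaling by total reads STAR was -0.017 and HSD11B2 -0.014, and SULT4A1 was -0.063 in edgeR's quasi-likelihood test and DESeq2 and -0.06 in edgeR's exact test. Without 1 library the ranges that crossed 0 were -0.071 to 0.304 for HSD3B7, -0.22 to 0.26 for STAR, -0.54 to 0.11 for SRD5A1, -0.34 to 1.13 for HSD11B1, -0.52 to 0.56 for HSD11B2, -0.23 to 0.83 for SULT2B1, -0.61 to 0.79 for SULT4A1, -0.19 to 1.32 for CYP51A1, -0.13 to 0.33 for CYP39A1, -0.59 to 0.53 for CYP4B1, -0.342 to 0.021 for CYP4V2 and -0.038 to 0.647 for AKR1E2, and the cause was not tested. The 4 steady calls ranged without 1 library from 0.83 to 0.92 for ALDH1A1, -0.98 to -0.78 for ALDH1A2, -2.87 to -1.65 for ALDH1A3 and -3.43 to -2.69 for CYP2C19. Groups of 2 and 3 libraries were too small to test for outlying libraries.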
